A study of Mus musculus with 4 samples.

Results

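Levels of 10 genes of the actin, tubulin and intermediate filament cytoskeleton were followed in mouse embryonic stem (ES) cells after knockdown of Atad2, a chromatin-bound bromodomain and AAA ATPase protein. The genes are Actb, Actg1, Cfl1, Pfn1, Tpm1, Tagln2, Vim, Tuba1b, Tubb5 and Srf, a list of named genes, several of which are in wide use as loading or normalisation references. All 10 were found and all 10 entered the test, out of 21325 genes that could be named and 10684 genes tested. The list was drawn up with earlier results of these data known, among them a small difference in Actb, and the question was whether the other genes share it.

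Total RNA was sequenced in 4 libraries of 46C ES cells, 2 per condition. All of the cells, controls included, carried a TAP tag knocked in at the C-terminal end of Atad2, were derived from 1 chosen clone, and were grown with LIF and serum on gelatin. The si-ctrl libraries (si-ctrl 1 and si-ctrl 2) come from cells given an inactive scrambled siRNA, and the si-Atad2 libraries (si-Atad2 1 and si-Atad2 2) from cells given an active siRNA against Atad2. The sample labels speak of replicates, whereas the study also describes a pair of active siRNAs and repeat sequencing. The p-values may thus measure technical spread alone. Which siRNA each si-Atad2 library had is not given by the labels, so a difference between siRNAs cannot be told apart from a difference between pairs.

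Levels are given in FPKM, fragments per kilobase of transcript after scaling to library size. Pair 1 (si-Atad2 1 and si-ctrl 1) and pair 2 (si-Atad2 2 and si-ctrl 2) were scaled in separate runs by the authors, so the change of a gene was taken inside each pair as log2((si-Atad2 FPKM + 1)/(si-ctrl FPKM + 1)), called the log2 ratio below, and levels set side by side across pairs carry that difference in scaling. The tables hold no read counts, so the depth in reads is unknown and the authors' 95% intervals stand in for counting error. In bulk RNA, fewer cells of a type and less RNA per cell cannot be told apart.

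Actin monomers polymerise into filaments whose turnover is set by binding proteins: profilin loads monomers onto growing ends, cofilin severs old filaments, and tropomyosins coat and stabilise filaments. Free actin monomer holds the coactivators MRTF-A and MRTF-B in the cytoplasm, and when monomer is used up they join the transcription factor SRF at CArG boxes in the promoters of actin and actin-binding genes. Microtubules are built from alpha and beta tubulin, while vimentin forms intermediate filaments in mesenchymal and many cultured cells, mouse ES cells among them.

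The siRNA target was measured first. Atad2 stood at 34.1 FPKM in si-ctrl 1, 36.0 in si-ctrl 2, 10.1 in si-Atad2 1 and 13.0 in si-Atad2 2. Both knockdown libraries lay below both controls, with 29.6% of the control level left in pair 1 and 36.2% in pair 2. Its mean log2 ratio was -1.53 (SE 0.076, limma with Benjamini-Hochberg adjustment over all genes tested, adjusted p = 1.4e-08).

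The 10 genes did not move in 1 direction: Actg1 rose, Vim fell, and Actb and the other 7 did not pass the test. At an adjusted p under 0.05 (limma with Benjamini-Hochberg adjustment) 2 of the 10 passed, where 3.18% of all genes tested did. Of all genes tested, 2.26% passed as higher and 0.927% as lower. Log2 ratios lay below 0 in both pairs for 6 of the 10 genes and above 0 in both pairs for 4, against 33.9% and 28.5% of all genes tested. All 6 that lay below 0 averaged at least 100 FPKM. Of the 452 genes tested at that level, 60.8% lay below 0 in both pairs. Tubb5, above 0 in both pairs, was the only other member at that level. Whether the members differ from genes of like level was not tested. Both knockdown libraries lay below both controls for 5 genes (26.8% of all genes tested) and above both for 2 (22.3%), and the groups overlapped for 3. Either way, groups without overlap were seen for 49% of all genes tested. After removal of a trend with GC content from each pair, 1 of the 10 passed (Actg1), against 1.18% of all genes.

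**Figure D1:**
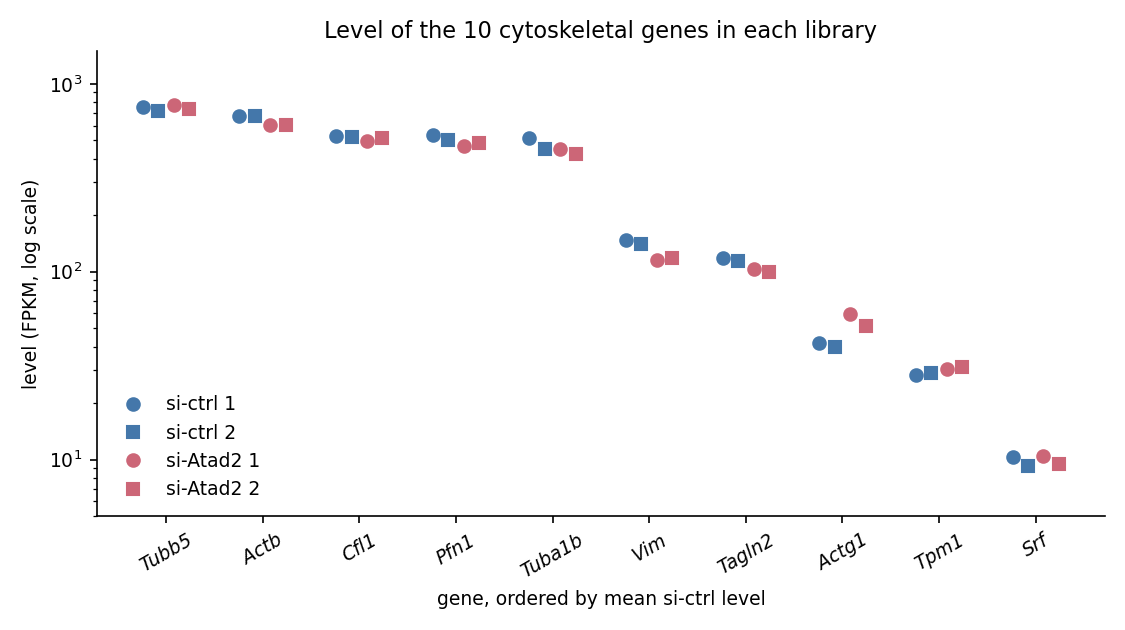
Level in FPKM (log scale) of each of the 10 genes in each of the 4 libraries, 1 point per library, ordered by mean si-ctrl level; pairs 1 and 2 were scaled separately. Levels run from about 735 FPKM for Tubb5 to 9.82 for Srf in si-ctrl, Vim lies lower and Actg1 higher in both si-Atad2 libraries, and the other genes move little relative to this range.

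The genes span a wide range of levels. Per length, the mean si-ctrl level was highest for Tubb5 (735 FPKM), followed by Actb (677), Cfl1 (526), Pfn1 (520) and Tuba1b (483). A gap separated these from Vim (144 FPKM) and Tagln2 (116), and a further gap from Actg1 (40.9), Tpm1 (28.5) and Srf (9.82). The si-ctrl values of Cfl1 and Pfn1 overlapped, as did those of Pfn1 and Tuba1b, so the order inside those pairs does not exceed the spread of the controls. All other neighbours were separated in both control libraries. Actb ranked 29th among all named genes by mean si-ctrl level and Tubb5 26th.

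Actb encodes beta-actin, the main cytoplasmic actin of non-muscle cells (GRCm38 chromosome 5, 142903115 to 142906754, minus strand). Its level was 678 FPKM in si-ctrl 1, 675 in si-ctrl 2, 604 in si-Atad2 1 and 606 in si-Atad2 2. The controls lay close together, the knockdown libraries lay close together below them, and the groups did not overlap. The difference was -11.0% in pair 1 and -10.2% in pair 2, and the authors' 95% intervals of the libraries in each pair were apart.

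For Actb the pairs gave log2 ratios of -0.17 and -0.16, and their mean was -0.16 (SE 0.054, 95% interval -0.28 to -0.047). By limma with Benjamini-Hochberg adjustment over all genes tested, the adjusted p was 0.122, so the change did not pass. The replicates differed by less than the pairs, since the log2 ratio of si-ctrl 2 over si-ctrl 1 was -0.0058 and that of si-Atad2 2 over si-Atad2 1 was 0.0059. With 2 libraries against 2, a two-sided exact permutation test of 1 gene cannot go below p = 0.333. A gene that did not pass is not thereby shown to be equal in both conditions.

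A ratio of this size was not rare among well-expressed genes. Of all 10684 genes tested, 821 (7.68%) had a mean log2 ratio at or below that of Actb, and of the 452 genes with a mean of at least 100 FPKM, 45 (9.96%) did. Across genes the median log2 ratio declined with level. It was 0.031 for the 1044 genes between 1 and 1.78 FPKM, -0.028 for the 1059 genes between 31.6 and 56.2 FPKM, and -0.098 for the 23 genes between 562 and 1000 FPKM, the range that holds Actb and Tubb5. In the 452 genes of at least 100 FPKM the median was -0.063, and 275 of them (60.8%) had ratios below 0 in both pairs.

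**Figure D2:**
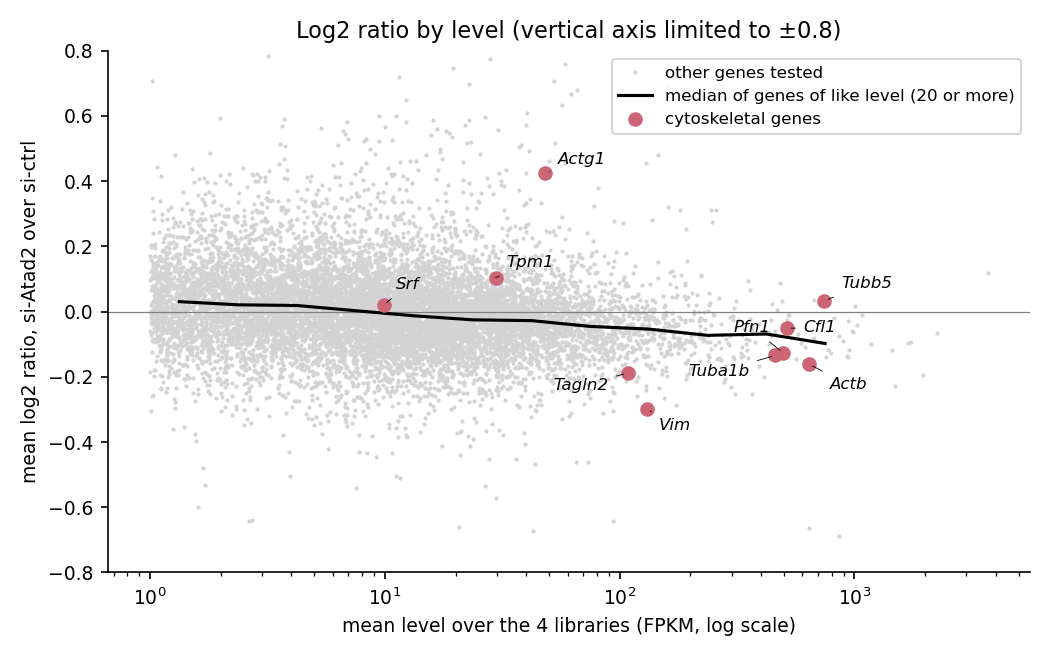
Mean log2 ratio (si-Atad2 over si-ctrl, vertical axis limited to ±0.8) against mean level over the 4 libraries (FPKM, log scale) for all genes tested in grey and the 10 cytoskeletal genes in red; the black line joins the medians of genes of like level. The line declines from 0.031 to -0.098, with Actb (-0.16) below it, Tubb5 (0.033) above it and Vim (-0.30) and Actg1 (0.43) far from it on opposite sides.

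Among the genes of at least 100 FPKM whose pair of log2 ratios lay nearest to that of Actb, by Euclidean distance over the 2 pairs, were Rsl1d1, Pfdn2, Ptma and Fkbp1a. Their distances ran from 0.0078 to 0.026, and none of these 4 passed the test, with adjusted p between 0.121 and 0.171 (limma with Benjamini-Hochberg adjustment). Since they were picked for ratios and levels like those of Actb, a like p-value follows from the choice and adds nothing about Actb. With si-Atad2 2 left out, Rsl1d1 and Fkbp1a had log2 ratios of -0.24 and -0.22. Without si-Atad2 1 they had -0.068 and -0.13, and Rsl1d1 had -0.074 without si-ctrl 2. Ptma, the gene of prothymosin alpha, had the highest level of these 4, at 251 and 247 FPKM in the controls and 224 and 225 FPKM after knockdown. Pfdn2 encodes a subunit of prefoldin, a chaperone that hands unfolded actin and tubulin to the chaperonin CCT.

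Actg1, the gene of gamma-actin, the other cytoplasmic isoform, rose. Its level was 41.9 FPKM in si-ctrl 1, 40.0 in si-ctrl 2, 59.6 in si-Atad2 1 and 51.3 in si-Atad2 2. Both knockdown libraries lay above both controls, 1.42-fold in pair 1 and 1.28-fold in pair 2. On the log2 scale the mean ratio was 0.43 (SE 0.065, limma with Benjamini-Hochberg adjustment, adjusted p = 0.0013). The ratio was 0.46 without si-ctrl 1, 0.39 without si-ctrl 2, 0.32 without si-Atad2 1 and 0.53 without si-Atad2 2. The call was lost in 5 of 17 alternatives. The si-Atad2 libraries were themselves 0.21 apart on the log2 scale, with si-Atad2 1 the higher.

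The difference between the actin isoforms can be read inside each library. Actb held 94.2% and 94.4% of the summed Actb and Actg1 FPKM in the controls, and 91.0% and 92.2% in si-Atad2 1 and 2. The ratio of Actb to Actg1 FPKM was 16.2 and 16.9 in the controls and 10.1 and 11.8 after knockdown, so the groups did not overlap. Their sum was 720 and 715 FPKM in the controls and 663 and 657 after knockdown. The log2 ratio of Actg1 exceeded that of Actb by 0.67 in pair 1 and by 0.51 in pair 2, a description for which no test was run.

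Actg1 values carry a limit that Actb values carry less. Of the 1903 stretches of 50 bases (the read length) in its annotated transcript, 56.7% also occur in 1 or more of 22 other annotated genes, 12 of them pseudogenes, against 14.2% for Actb. How the authors' alignment treated reads that map to several places is not given in the sources used here. Gapdh, Ppia and Hprt, chosen here after their values were seen, have 90.4%, 80.5% and 0% of their stretches in other genes. In the si-ctrl mean they were listed at 1.12, 3.28 and 1.01 FPKM, and the cause of these low values was not tested. The part of such copies in the Actg1 level or its change was not tested.

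The actin-binding proteins gave no call. Cfl1, non-muscle cofilin, stood at 531 FPKM in si-ctrl 1, 521 in si-ctrl 2, 497 in si-Atad2 1 and 518 in si-Atad2 2. The knockdown libraries lay below the controls, but by -6.33% in pair 1 and only -0.56% in pair 2, a mean log2 ratio of -0.051 (SE 0.055, limma adjusted p = 0.706). Of its 50-base stretches 20.5% are shared with other genes, and its span overlaps Snx32 on the other strand, so its value is uncertain to that extent.

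Pfn1, profilin 1, measured 534 FPKM in si-ctrl 1, 505 in si-ctrl 2, 468 in si-Atad2 1 and 484 in si-Atad2 2. Both knockdown values lay below both controls. Its log2 ratio averaged -0.13 (SE 0.057), with -0.19 in pair 1 and -0.061 in pair 2, and did not pass (limma adjusted p = 0.269).

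Tagln2, the calponin-family protein transgelin 2, which binds actin filaments, measured 118 FPKM in si-ctrl 1, 113 in si-ctrl 2, 103 in si-Atad2 1 and 99.4 in si-Atad2 2. The groups did not overlap, and the pairs gave the same log2 ratio to 2 decimals, -0.19. The test over all genes did not call it (SE 0.059, limma adjusted p = 0.0967). Its log2 ratio was -0.22 with si-Atad2 1 left out and -0.16 with si-Atad2 2 left out. Its main row of 1382 bases held 107 and 105 FPKM in the controls and 95.05 and 88.2 FPKM after knockdown, with the authors' intervals apart in both pairs. The log2 ratios of that row were -0.16 and -0.25. A row of 470 bases held the rest, with log2 ratios of -0.42 in pair 1 and 0.41 in pair 2. The equal ratio of the pairs thus holds for the sum and not for either row.

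Tpm1, a tropomyosin with many splice forms, measured 28.1 FPKM in si-ctrl 1, 28.9 in si-ctrl 2, 30.4 in si-Atad2 1 and 31.1 in si-Atad2 2. Both knockdown libraries lay above both controls, by 8.08% and 7.43%. Its mean log2 ratio was 0.10 (SE 0.065, limma adjusted p = 0.464), which did not pass.

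The Tpm1 total came from 12 rows of the tables, of which 5 had a mean of at least 1 FPKM. The main row (uc012gvs.1, 1675 bases) measured 14.02 and 13.1 FPKM in the controls and 14.8 and 13.9 FPKM after knockdown. A row of the same length (uc012gvr.1) measured 4.27 and 2.96 FPKM in the controls and 5.53 and 4.60 FPKM after knockdown, and the authors' intervals were apart in pair 2 alone. The row uc009qfs.1 had log2 ratios of 0.015 and 0.046.

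The remaining Tpm1 rows above 1 FPKM differed in sign between pairs, with log2 ratios of -0.12 and 0.31 for uc009qfr.2 and 0.34 and -0.11 for uc009qfo.1. The row uc009qfo.1 varied more between replicates than between conditions, at 0.68 and 3.25 FPKM in the controls and 1.13 and 2.94 FPKM after knockdown.

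**Figure D3:**
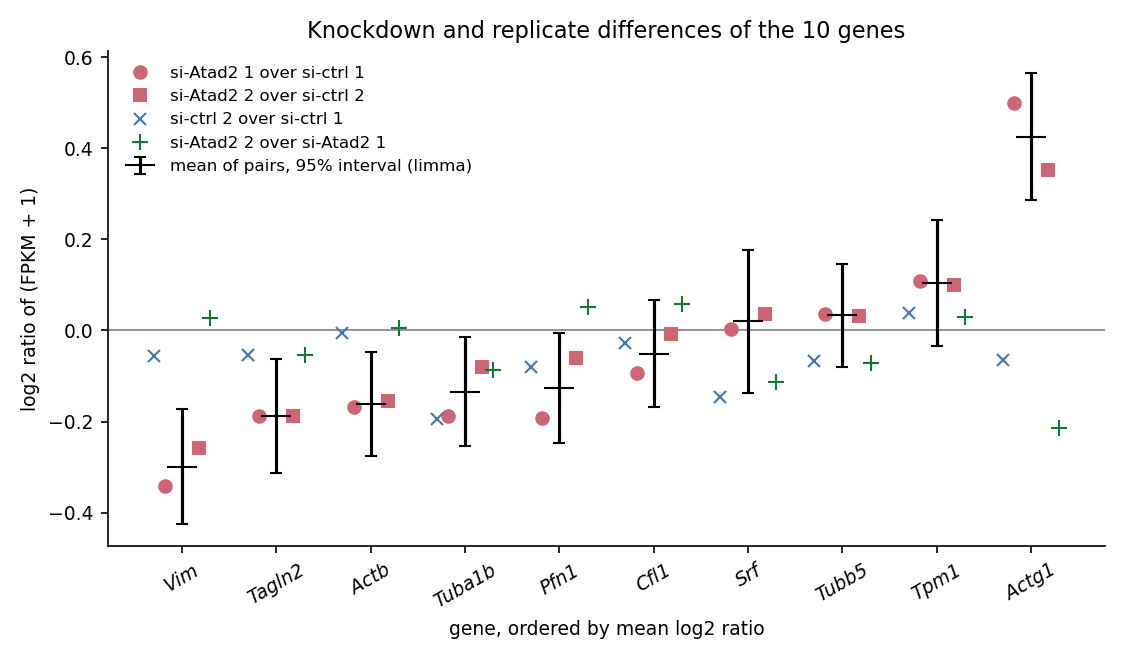
Log2 ratio of (FPKM + 1) for the 10 genes, ordered by their mean: red circles and squares are the knockdown against its control in pairs 1 and 2, the black bar is their mean with the 95% interval from limma, blue crosses are si-ctrl 2 over si-ctrl 1 and green plus signs si-Atad2 2 over si-Atad2 1. Vim (-0.30) and Actg1 (0.43) passed after adjustment over all genes, and for Tuba1b the control replicates differed by as much (-0.19) as the larger of its pairs.

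Vim, which encodes vimentin, fell. Its level was 147 FPKM in si-ctrl 1, 141 in si-ctrl 2, 116 in si-Atad2 1 and 118 in si-Atad2 2. Both knockdown libraries lay below both controls, by -21.2% in pair 1 and -16.4% in pair 2. The mean log2 ratio was -0.30 (SE 0.059, limma with Benjamini-Hochberg adjustment, adjusted p = 0.0099), and none of its 50-base stretches occur in another annotated gene. With the GC trend removed the adjusted p by limma was 0.059, and the call was lost in 8 of 17 alternatives. With 1 library left out the log2 ratio ran from -0.33 (without si-ctrl 2) to -0.27 (without si-ctrl 1).

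Vim is also a marker of fibroblasts and other mesenchymal cells, so markers of cell types that ES cultures can hold were summed. The 10 fibroblast or feeder cell markers summed to 12.6 and 11.6 FPKM in the controls and 11.6 and 12.2 FPKM after knockdown, with Lum at 0 in all libraries and 6 of the 10 under 1 FPKM in all of them. The 8 extraembryonic markers summed to 7.75 and 8.33 FPKM in the controls and 7.81 and 8.19 FPKM after knockdown, and the 4 neural progenitor markers to 3.23 and 3.52 FPKM in the controls and 3.16 and 2.76 FPKM after knockdown. The 8 ES cell markers, all of them detected, summed to 3232 and 3282 FPKM in the controls and 3055 and 3077 FPKM after knockdown. The groups did not overlap for this sum, nor for 49% of all genes tested taken singly. Over genes of at least 100 FPKM the median log2 ratio was -0.063. For the 8 ES cell markers it was -0.069, and none of the 8 passed the test. Their 2 most abundant, Dppa5a and Pou5f1, had mean log2 ratios of -0.14 each, and over the 8 markers the ratios ran from -0.25 (Nanog) to 0.088 (Tdgf1).

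Neither tubulin passed the test. Tubb5, the main beta-tubulin in these libraries, measured 753 FPKM in si-ctrl 1, 718 in si-ctrl 2, 771 in si-Atad2 1 and 733 in si-Atad2 2. The groups overlapped, and replicates differed by more (-0.068 and -0.072 on the log2 scale) than the conditions did (0.035 and 0.031). The authors' intervals were nevertheless apart in both pairs, since they cover counting within 1 library and not the spread between libraries. Tubb5 had a mean log2 ratio of 0.033 (SE 0.053, 95% interval -0.081 to 0.15, limma adjusted p = 0.820).

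Tuba1b, an alpha-tubulin expressed in most tissues, measured 515 FPKM in si-ctrl 1, 450 in si-ctrl 2, 452 in si-Atad2 1 and 426 in si-Atad2 2. The groups overlapped because si-ctrl 2 lay just below si-Atad2 1. Tuba1b had a mean log2 ratio of -0.13 (SE 0.056, limma adjusted p = 0.228), from -0.19 in pair 1 and -0.081 in pair 2. It was -0.037 without si-ctrl 1 and -0.23 without si-ctrl 2. Most of its level came from a row of 391 bases (395 and 338 FPKM in the controls, 345 and 321 FPKM after knockdown), while the row of 1562 bases held 120 and 112 FPKM in the controls and 107 and 105 FPKM after knockdown. Gm49450, a coding gene on the same strand, also overlaps the Tuba1b span. Both rows were assigned to Tuba1b by position and not by length. In its annotated transcript 83.1% of the 50-base stretches occur in other genes, 59.3% in Tuba1c alone, so alpha-tubulin reads cannot be assigned to 1 gene with certainty.

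Srf, the transcription factor that binds CArG boxes in actin and actin-binding genes, measured 10.4 FPKM in si-ctrl 1, 9.28 in si-ctrl 2, 10.4 in si-Atad2 1 and 9.53 in si-Atad2 2. The groups overlapped, and both libraries numbered 1 lay above both numbered 2. The mean log2 ratio was 0.020 (SE 0.074, 95% interval -0.14 to 0.18, limma adjusted p = 0.930). Srf has the highest GC content of the 10 genes, 64.4% against a median of 50.5% over the genes tested, and the ratio of si-ctrl 2 to si-ctrl 1 declined with GC content across genes (Spearman's rho -0.56 over 10684 genes, which are not independent replicates). For the log2 ratios themselves rho was -0.29 in pair 1 and 0.088 in pair 2.

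**Figure D4:**
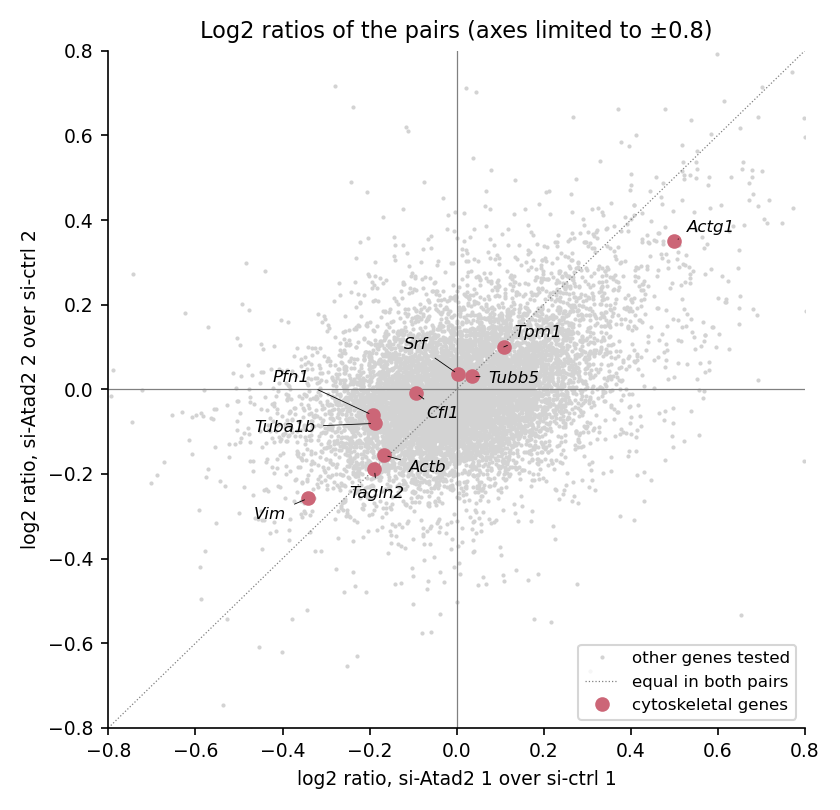
Log2 ratio in pair 2 against that in pair 1, axes limited to ±0.8, for the 10 cytoskeletal genes in red and the other genes tested in grey, with a dotted line where both pairs are equal. Actb, Tagln2, Tpm1 and Tubb5 lie close to the line, Vim and Actg1 lie towards its opposite ends, and Pfn1 and Tuba1b have a ratio below 0 that is larger in pair 1.

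CArG boxes were looked for in RefSeq promoters (GRCm38.p6, 250 bases before to 50 after the gene start, both strands), since the box is the site that SRF binds. A box of 10 bases was found in 535 of 32851 promoters (1.63%), and in 2 of the 9 members that have an entry, Actg1 and Srf, while Actb has no entry in the table. The windows of 30 bases around the boxes of these 2 genes are shown because Actg1 rose and Srf did not pass; capitals mark the box, 90 bases before the start of Actg1 and 82 and 62 bases before that of Srf.
Actg1, chr11:120348566-120348595, minus strand: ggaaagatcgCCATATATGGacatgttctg
Srf upstream box, chr17:46556225-46556254, minus strand: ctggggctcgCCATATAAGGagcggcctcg
Srf downstream box, chr17:46556205-46556234, minus strand: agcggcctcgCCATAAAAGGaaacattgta
A match of letters is a description of the sequence and not a measured site, and no binding data were used here.

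SRF and MRTF target genes, most but not all of them genes of the cytoskeleton, were listed apart from the 10 genes. Of 19 listed, 13 were tested, since 3 could not be named and 3 lay under the filter. Of these 13, 3 rose and none fell, where 2.26% of all genes tested rose, and the median log2 ratio was 0.047 against -0.0082 over all genes tested. Tpm4, a short tropomyosin, measured 21.8 and 21.5 FPKM in the controls and 28.0 and 26.5 FPKM after knockdown (log2 ratio 0.32, SE 0.067, limma adjusted p = 0.016).

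Ccn1, a secreted matricellular protein, measured 2.28 and 2.41 FPKM in the controls and 3.67 and 3.17 FPKM after knockdown (log2 ratio 0.40, SE 0.090, limma adjusted p = 0.022). Ccn2, of the same protein family, measured 4.43 and 4.13 FPKM in the controls and 5.30 and 6.10 FPKM after knockdown (log2 ratio 0.34, SE 0.087, limma adjusted p = 0.043). For all 3 genes the groups did not overlap, but Ccn1 and Ccn2 are low. With 1 library left out, the log2 ratio ran from 0.28 to 0.35 for Tpm4. It ran from 0.32 to 0.48 for Ccn1 and from 0.25 to 0.43 for Ccn2. Of the alternatives, Tpm4 passed in 10 of 17, Ccn1 in 8 of 16 and Ccn2 in 6 of 16. The count of 3 became 1 without the replicate block and 0 with the GC trend removed. The most abundant targets, the crosslinkers Actn1 and Flna, had log2 ratios of -0.11 and 0.038 and did not pass. A promoter box was present in 7 of the 16 listed targets with an entry, and Tpm4 and Ccn1 were not among those 7, while Ccn2 has no entry.

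Among 36 other regulators of actin filaments, 1 rose and none fell, where 2.26% of all genes tested rose and 0.927% fell, so the count is near the background. The median log2 ratio was 0.0037. The gene that rose was Cfl2, a second cofilin known from muscle, at 10.8 and 11.8 FPKM in the controls and 16.3 and 15.6 FPKM after knockdown (log2 ratio 0.46, SE 0.075, limma adjusted p = 0.0021). Both knockdown libraries lay above both controls. With 1 library left out the log2 ratio of Cfl2 ran from 0.41 to 0.52, and it passed in 14 of 18 alternatives. Tmsb4x, which sequesters actin monomer and is the most abundant of this list, measured 205 and 229 FPKM in the controls and 308 and 236 FPKM after knockdown. Its groups did not overlap, but the log2 ratios of 0.58 (pair 1) and 0.045 (pair 2) were far apart and it did not pass (limma adjusted p = 0.066). The log2 ratio of Tmsb4x was 0.50 with si-Atad2 2 left out and 0.12 with si-Atad2 1 left out. Dstn, destrin, a relative of the cofilins, had log2 ratios of 0.11 and -0.075 and did not pass.

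**Figure D5:**
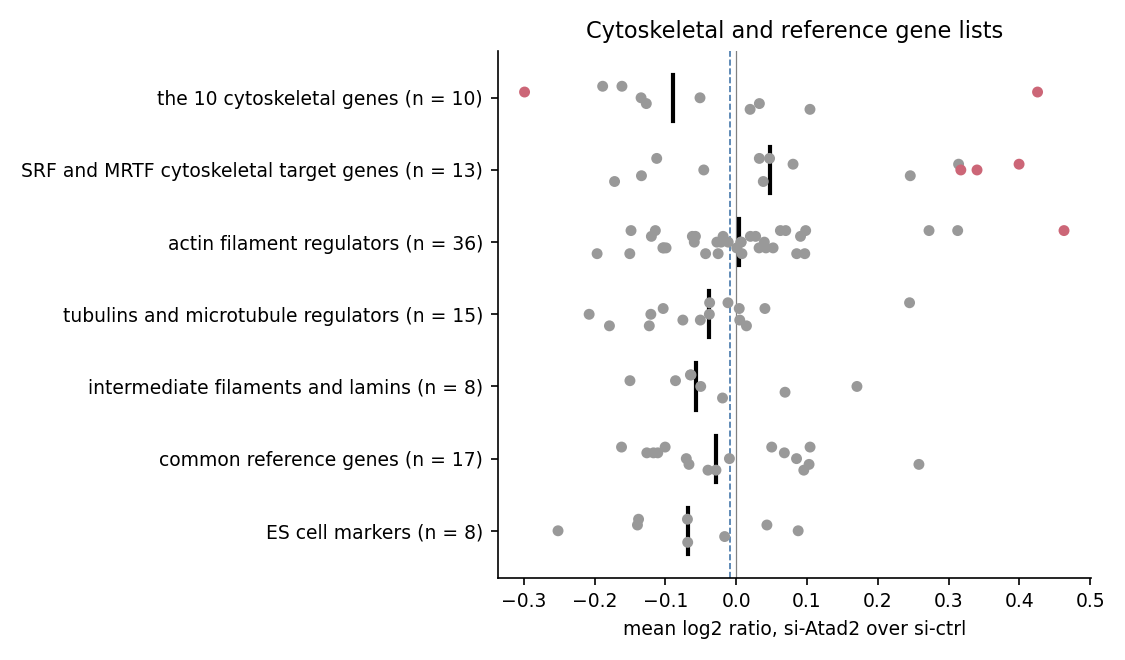
Mean log2 ratio of each tested gene in the 10 cytoskeletal genes and in 6 other lists, 1 point per gene spaced vertically for legibility; red points passed the test over all genes, black bars are list medians and the dashed blue line is the median of all genes tested (-0.0082). Red points are found in the 10 genes (1 on each side), the SRF and MRTF targets (3) and the actin filament regulators (1), and list medians run from -0.089 to 0.047.

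No gene passed among the other lists, where 3.18% of all genes tested did, a share too small for lists of this size to fall short of it. The 15 tested tubulins and microtubule regulators had a median log2 ratio of -0.038, with Tubb4b at -0.037 and Tuba1a at -0.012, the 2 most abundant. The 8 intermediate filament and lamin genes had a median of -0.057, with the lamins Lmnb1 at -0.086 and Lmnb2 at -0.050.

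Common reference genes other than the 10 had a median log2 ratio of -0.029 over 17 genes, 7 of them below 0 in both pairs and 6 above 0 in both, and none passed. Their ratios ran from -0.16 to 0.26. Of the 17, Gapdh, Hprt and Ppia were listed at only 1.12, 1.01 and 3.28 FPKM in the si-ctrl mean, near the filter. Gapdh and Ppia, with 90.4% and 80.5% of their 50-base stretches in other genes, are among the 6 above 0 in both pairs. The most abundant, the elongation factor Eef1a1 and the chaperone Hsp90ab1, had log2 ratios of -0.067 and -0.12. The median of the 10 cytoskeletal genes was -0.089, or -0.051 without Actb, and it differed between the pairs, at -0.13 in pair 1 and -0.035 in pair 2.

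The choice of a reference gene moved the apparent knockdown. Atad2 in si-Atad2 stood at 29.6% of control in pair 1 and 36.2% in pair 2 by FPKM alone. Divided by Actb the values were 33.3% and 40.3%, divided by Vim 37.6% and 43.3%, and divided by Actg1 20.8% and 28.2%. Divided by Tubb5 they were 28.9% and 35.4%, within 0.76 percentage points of the undivided values in both pairs.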

How the data were processed

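RNA-seq of 4 libraries of 46C ES cells was analysed, grouped by the sample labels. The paper gives paired ends of 50 cycles for its ChIP-seq libraries, and that length was taken here for the RNA-seq. Per the labels, the authors used TopHat, Cuffdiff and the build mm9 (versions are not given in the sources used here), whereas the deposited loci match GRCm38. Each knockdown library was run in Cuffdiff with its like-numbered control. Of the 8 tables deposited, 4 gave the authors' FPKM with 95% intervals. The other 4 hold the authors' fold changes, p-values and q-values and were not used.

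Rows were named from GENCODE vM21 by a transcript length within 3 bases, else by the only coding gene in the locus, else by a gene covering at least 80% of the locus with the locus covering at least 60% of the gene. This last step was added after the files were seen, because Cfl1 and Tuba1b had no name otherwise. Rows under 200 bases, which held 52.3% to 57.5% of all FPKM, were dropped and FPKM summed per gene. The 10684 genes that averaged 1 FPKM or more and had status OK were tested with limma on the within-pair log2 ratios (pseudocount 1 FPKM, eBayes with a trend on level, Benjamini-Hochberg, threshold 0.05). The script was also run on simulated data. This scale understates changes of low genes. The replicate number is a block because the authors scaled the pairs separately; deviations of same-numbered libraries had a correlation of -0.030, so the values themselves show no pairing.

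The members and gene lists were chosen with earlier results of these data known. Named genes are the 10 members and Atad2, the 2 highest and up to 3 called genes of each list, the 5 genes nearest to Actb (1 of them is not reported here), and Tpm1 rows of at least 1 FPKM. Sequence sharing was found with blastn 2.17.0 and exact 50-base matches between annotated transcripts, and promoters are from RefSeq. Alternatives covered the pseudocount, filter, scaling, pairing, GC content, trend, row choice, threshold and each library left out. Other tools were limma 3.58.1 in R 4.3.3, and pandas 2.3.3, statsmodels 0.14.6, numpy 2.4.6, matplotlib 3.10.9 and scipy 1.17.1 in Python 3.11.15.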

Additional observations from a re-analysis of the deposited data

How the results depend on the processing

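The mean log2 ratio of Actb stayed between -0.17 and -0.13 under every alternative that gave it a value, and its adjusted p by limma (0.109 to 0.787) stayed above the threshold in all 17 that could be tested. Naming rows by length alone left no value for any of the 10 genes other than Tpm1. The Actg1 call was lost in 5 of 17 alternatives and the Vim call in 8 of 17. Without a filter on the level 0 genes passed by limma, although 1879 had an unadjusted p under 0.05 (1781 in the reported fit), 0 of the 10 genes passed and Atad2 (-1.53) reached an adjusted p of 0.274; with crossed pairs 97 genes and 0 of the 10 passed; with rows of all lengths 57 and 0; with the GC trend removed 126 and 1 of the 10 (Actg1); with the highest transcript alone 86 and 1; by eBayes without a trend 240 and 1. With names by length only 32 genes passed, and at a threshold of 0.1 638. Without the replicate block 145 genes passed in place of 340, while Actg1 and Vim passed with or without the block (adjusted p = 0.036 each without it).

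Leaving out 1 library, which needs a fit without the block and assumes that the lone library varies like the others, gave from 6 to 2038 genes and from 0 to 3 of the 10. Without si-ctrl 1 or without si-ctrl 2 6 genes passed, without si-Atad2 1 770 and without si-Atad2 2 2038. The log2 ratio of Tagln2 was -0.22 without si-Atad2 1 and -0.16 without si-Atad2 2.

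Among genes with ratios near 0 the direction turned for Tubb5 (-0.0011 without si-ctrl 2 and -0.0033 without si-Atad2 1), Srf (-0.053 and -0.037 in the same fits) and Dstn (-0.035 without si-ctrl 1 and -0.020 without si-Atad2 1). It also turned for Tubb4b (0.0013 without si-ctrl 1), Tuba1a (0.023 by TPM, 0.0042 with the GC trend removed, 0.040 without si-ctrl 1 and 0.019 without si-Atad2 2) and Flna (-0.0060 without si-ctrl 2). Of the cell type markers it turned for Dab2 (0.11 with the highest transcript and 0.081 without si-ctrl 2), Thy1 (0.055 without si-Atad2 1) and Krt7 (-0.061 without si-Atad2 2). The share of calls that were higher was 70.9% in the reported fit, 82.4% by TPM, 78.9% by median of ratios and 86.5% with the GC trend removed, and 51.8% without si-Atad2 1 and 59.1% without si-Atad2 2. The cause of these shifts was not tested. Depth is unknown, and 2 pairs of libraries limit the precision of every ratio.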
